A study of Mus musculus with 3 samples.

Results

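Ptges-Inhba-Il1a cells are the inflammatory macrophages of healing mouse skin that were richest in transcripts of 6 genes: Ptges, Inhba, Il1a, Cxcl1, Met and Pdpn. They were 135 of 2702 cell barcodes, the top 5% by a score over these genes. A droplet barcode stands for a cell, and its molecules are counted as unique molecular identifiers (UMIs). Barcodes with at least 200 genes, under 10% of UMIs from mitochondrially encoded genes and at least 2000 UMIs entered, pooled over the libraries, and the score was the mean natural log of 1 plus the UMIs per 10000 of each gene. The last barcode taken in had a score of 1.242 and the first left out 1.237, with 4 and 3 of the 6 genes detected, so the limit fell within a continuum and not at a gap.

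The study used droplet single-cell RNA-seq (10x Chromium) to follow monocytes and macrophages through wound repair. Its mice were male, of the inbred strain C57BL6/J, with no further treatment or allele in the labels. Wounds were taken on day 3, day 6 or day 10 after injury, and the cells of 2 mice were pooled into 1 library per day. The pooled mice cannot be separated, and library and day cannot be told apart, so no difference between days was tested. Each interval below is a 95% interval for counting error only.

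Macrophages that enter a wound sense tissue damage and microbial products, and answer with a burst of NF-kB-driven genes for cytokines, chemokines and lipid mediators. Ptges encodes the inducible terminal synthase of prostaglandin E2, Inhba the subunit of activin A, and Il1a the alarm cytokine interleukin-1 alpha. Cxcl1 encodes a neutrophil attractant, Met the receptor of hepatocyte growth factor, and Pdpn podoplanin, a membrane mucin that binds the platelet receptor CLEC-2. Activin A and prostaglandin E2 are both known mediators of repair in skin.

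Cxcl1, Cxcl2 and Cxcl3 are neighbouring genes for neutrophil attractants on chromosome 5, and all were high in these cells. The 250 bases before each RefSeq start (build GRCm38.p6, + strand) are shown because each holds 1 match to the NF-kB type motif GGAATTTCC, set in capitals. They lie at chr5:90890995-90891244 for Cxcl1, chr5:90903649-90903898 for Cxcl2 and chr5:90785851-90786100 for Cxcl3.
Cxcl1: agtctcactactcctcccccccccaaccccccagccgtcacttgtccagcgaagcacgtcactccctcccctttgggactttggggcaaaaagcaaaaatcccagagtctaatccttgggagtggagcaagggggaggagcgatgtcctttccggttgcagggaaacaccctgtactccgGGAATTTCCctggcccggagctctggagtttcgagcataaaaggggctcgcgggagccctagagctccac
Cxcl2: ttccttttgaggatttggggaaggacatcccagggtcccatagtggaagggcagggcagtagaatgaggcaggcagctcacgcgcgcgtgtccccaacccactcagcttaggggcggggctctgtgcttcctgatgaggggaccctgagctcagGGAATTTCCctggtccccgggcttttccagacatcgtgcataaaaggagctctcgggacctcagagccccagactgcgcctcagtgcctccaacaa
Cxcl3: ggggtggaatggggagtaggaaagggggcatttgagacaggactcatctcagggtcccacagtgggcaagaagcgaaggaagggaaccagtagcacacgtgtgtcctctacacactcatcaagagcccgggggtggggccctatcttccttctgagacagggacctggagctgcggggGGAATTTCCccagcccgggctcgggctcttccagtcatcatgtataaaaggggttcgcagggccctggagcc
The match begins 70, 96 and 72 bases before the start of Cxcl1, Cxcl2 and Cxcl3, on the + strand in each. With both strands searched (GGAAATTCC is the reverse complement), 94 of 32851 RefSeq windows of the same length held the motif, which is 0.286%. It was in 4 of the 19 genes looked up, all of which had a window, and the fourth was Acod1. The 19 were the 6 score genes, the 12 higher genes named below and Cxcl2, which that naming did not pick. Cxcl1, Cxcl2 and Cxcl3 are neighbours and are shown for their matches, so 4 of 19 beside 0.286% is no measure of enrichment. The length of the motif was set after the matches were seen: with 1 further G in front, 28 windows (0.0852%) and 3 of the 19 genes held it, without Acod1. A match describes the letters and is not evidence of binding, and no match says only that these letters are absent from this window.

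The cells were found on each day. They numbered 21 of 879 barcodes in the day 3 library, 40 of 551 in the day 6 library and 74 of 1272 in the day 10 library. The shares were 2.39% (1.48 to 3.63%), 7.26% (5.24 to 9.75%) and 5.82% (4.6 to 7.25%), so the interval of day 3 lay below that of the later days, while those of day 6 and day 10 overlapped. The day 3 library gave 32.5% of all kept barcodes but 15.6% of the Ptges-Inhba-Il1a cells. Median scores were 1.44, 1.55 and 1.65 and the highest scores 1.97, 2.77 and 3.09 on day 3, day 6 and day 10. Of the other barcodes 54.7%, 50.1% and 42% had a score of 0.

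**Figure D1:**
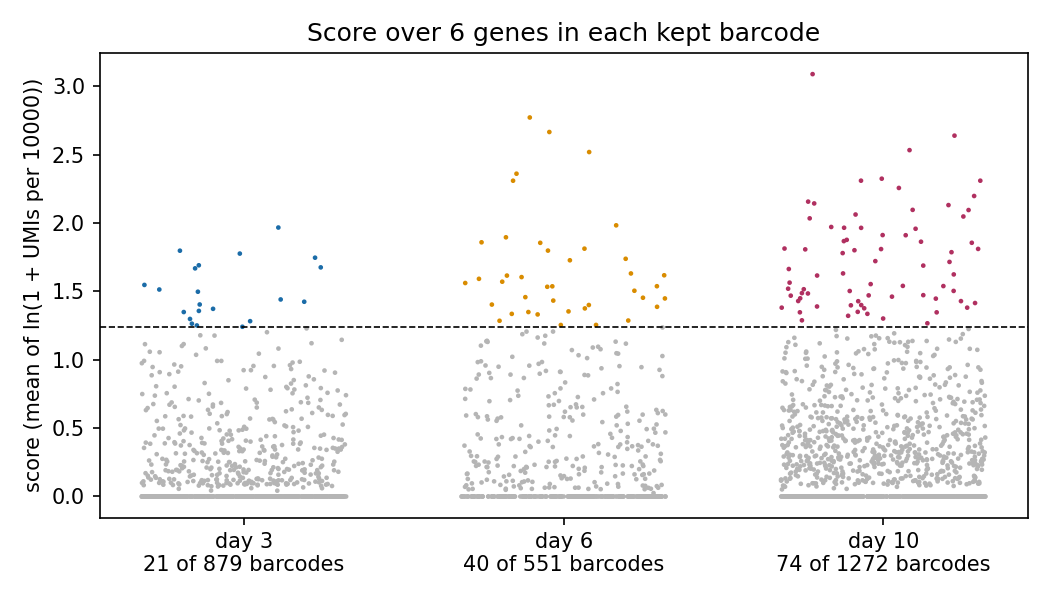
Score of every kept barcode (vertical axis, mean of the natural log of 1 plus UMIs per 10000 over 6 genes) by day, with Ptges-Inhba-Il1a cells in colour, other barcodes in grey and the limit as a dashed line; the horizontal spread within a day carries no value. The 21 cells of day 3 reach 1.97, and the 74 of day 10 reach 3.09.

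Depth was near that of the other barcodes. Their median UMIs per barcode were 9581, 12188 and 8800, against 10776.5, 12653 and 8745.5 in the other barcodes of the same libraries. Median genes were 2377, 2840 and 2308 against 2646, 3077 and 2477.5, and median mitochondrial shares were 4.11%, 3.75% and 2.93% against 3.81%, 3.62% and 3.13%. No kept barcode sequence occurred in more than 1 library. Doublet calling marked 4, 1 and 4 barcodes of the 3 libraries, among them 2 Ptges-Inhba-Il1a cells of day 10.

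The macrophage label was set beside markers outside the score. UMIs of at least 5 of 10 monocyte and macrophage markers were found in 125 of 135 cells (92.6%) and in 84.8% of the other barcodes, which include barcodes with dendritic cell markers (below). Of the 10 markers 1 was at least 2-fold higher in all libraries, Cd14, and 0 lower, against 1.79% and 2.05% of all genes. Their median log2 ratio was -0.03. Without the barcodes with dendritic cell markers 1 was higher and 1 lower, with a median of -0.35. Cd14, the lipopolysaccharide co-receptor, had 4627, 3648 and 3016 counts per 1000000 of the summed UMIs (CPM) on days 3, 6 and 10, against 1646, 837 and 952 in the other barcodes. Csf1r, the receptor for macrophage growth factor, was near their level (293, 381 and 447 against 259, 339 and 412 CPM), as was the lysosomal protein gene Cd68. Adgre1, which encodes F4/80, was lower (94.3, 70.3 and 57.1 against 114, 157 and 111 CPM), and the complement gene C1qa was lower on day 6 and day 10 (289 and 313 against 1340.3 and 1306 CPM).

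Markers of several other skin cell types were near 0. Fibroblast markers summed to 5.24 to 8.78 CPM in the 3 libraries with Pdgfra, Postn and Lum at 0, keratinocyte markers to 5.24 to 7.81 CPM with Krt5 and Krt14 at 0, and T cell markers to at most 1.46 CPM. Endothelial markers summed to 21, 48.8 and 54.2 CPM on days 3, 6 and 10, against 16, 36.3 and 46.2 CPM in the other barcodes. Most of that sum was Pecam1, an adhesion gene that leukocytes also use (15.7, 31.2 and 45.4 against 10.5, 17.3 and 22.9 CPM), while Emcn and Tek were at 0. Plasmacytoid dendritic cell markers summed to 739, 249.96 and 98.1 against 589.8, 250.37 and 173 CPM. Nearly all of it was Bst2, an interferon-induced gene (728, 248 and 96.6 CPM), and Siglech was at 0. Dendritic cell markers were the other extreme of the comparison: none of the 135 cells held UMIs of at least 2 of 8 markers, which allows a share of up to 2.22%, while 447 of 2567 other barcodes did (17.4%). These dendritic-marker barcodes weigh on comparisons with the other barcodes, so list counts that differ without them are given in both forms. Neutrophil markers summed to 131, 496 and 425 CPM against 166, 241 and 128 CPM. S100a8 had 68.1, 320 and 259 CPM against 56.4, 80.1 and 57.4 CPM, S100a9 had 0, 68.3 and 26.4 against 15.3, 73.8 and 19.2 CPM, and Ly6g and Ngp were at 0. Of 4 measured neutrophil markers 0, 1 and 2 were at least 2-fold higher on days 3, 6 and 10, where 7.64%, 7.01% and 4.25% of all genes were. At least 2-fold lower were 1, 1 and 0, where 7.39%, 14% and 13.7% of all genes were. Their median log2 ratios were 0.08, 0.34 and 1.32, and 0 were higher in all libraries. The part of such RNA in the results was not tested.

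The 6 genes that made the score were not all present in each cell. At least 4 of them were detected in 116 of the 135 cells, at least 5 in 68 and all of them in 11. Among the other barcodes 59 of 2567 had at least 4, and 3 had all 6 at levels below the limit. Pdpn was the most widely detected, in 130 cells, and Ptges the least, in 77.

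Their levels are the rule itself and are given as a description. Inhba had 1535, 1195 and 826 CPM in the Ptges-Inhba-Il1a cells of days 3, 6 and 10, against 60.2, 13.2 and 19.5 CPM in the other barcodes. Ptges had 52.4, 346 and 329 CPM against 1.89, 6.43 and 12.6 CPM. Il1a had 697, 625 and 805 CPM against 33.5, 32.1 and 24.8 CPM. The choice of cells by these genes sets such gaps, and Ptges on day 3 rests on 10 UMIs. Cxcl1 had 1813, 3689 and 3252 CPM against 120, 243 and 225 CPM, Met 215, 129 and 209 against 20.2, 10 and 14.5 CPM, and Pdpn 1268, 1152 and 1802 against 113, 166 and 281 CPM.

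The makeup of the score differed between days. Inhba was detected in 85.7% of the day 3 cells (63.7 to 97%), 77.5% of day 6 (61.5 to 89.2%) and 62.2% of day 10 (50.1 to 73.2%). Ptges was detected in 38.1% (18.1 to 61.6%), 45% (29.3 to 61.5%) and 68.9% (57.1 to 79.2%). The intervals of these shares overlapped, and the libraries differed in depth. Thinned to 2000 UMIs per barcode, Inhba was found in 57.1%, 57.5% and 39.2%, and Ptges in 4.76%, 27.5% and 43.2%. Intervals of CPM did not overlap between day 3 and day 10. They were 1365 to 1722 and 759 to 897 for Inhba, and 25.1 to 96.4 and 288 to 375 for Ptges. Dendritic-marker barcodes, at a median of 15963 UMIs, held Ptges in 0 of 447, Inhba in 0.895% and Cxcl1 in 3.58%. In the same barcodes Il1a was found in 1.34%, Met in 2.91% and Pdpn in 2.68%. Whether these shares are background RNA or low expression was not tested.

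Selection on a score favours barcodes where sampling happened to be generous, so the UMIs of each barcode were also split at random into 2 portions, with cells chosen on 1 portion and read in the other. The choice shared 119 of 135 cells (88.1%) with the original. The portion is part of the UMIs that made the original score, so sharing is largely built in. In the unused portion Inhba was 39.7-fold, Il1a 24.8-fold, Ptges 15-fold, Met 11.8-fold, Cxcl1 9.97-fold and Pdpn 8.22-fold higher than in the other barcodes (geometric mean of 3 libraries, with Ptges on day 3 taken as 1). There Ptges had 13.7 against 2.5 CPM on day 3, which is unresolved, and 396 against 2.69 and 305 against 13.3 CPM on days 6 and 10. The cells were still chosen by these genes, so the ratios describe the choice and are no independent support for it.

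Outside the score, 165 of 9205 genes (1.79%) were at least 2-fold higher in the Ptges-Inhba-Il1a cells within each of the 3 libraries, and 189 (2.05%) were at least 2-fold lower. Cells and other barcodes were chosen from the same data, so these counts are a description with no test. The median gene was lower by a log2 ratio of -0.16. With other scaling factors the split moved from 165 higher and 189 lower to 231 and 139 (TMM) or 230 and 136 (median of ratios), a shift of 0.19 or 0.17 on the log2 scale. Leaving out the dendritic-marker barcodes gave 91 of 8585 (1.06%) and 108 (1.26%), of which 86 and 94 were shared with the first sets. Leaving out the day 3 library gave 252 higher and 581 lower genes, and leaving out day 10 gave 268 and 288.

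The higher genes with the largest ratios and at least 100 CPM were Mir155hg, Serpinb2, Cxcl3, Ckap2l, Slpi, Lif, Tnfrsf9, Acod1, Tnf, Cav1, Slc7a11 and Gadd45a. Mir155hg, the host transcript of the inflammatory microRNA miR-155, had 225, 174 and 126 CPM against 20, 16 and 12.4 CPM. It was 11.3-fold (7.89 to 15.7), 10.9-fold (8.11 to 14.5) and 10.2-fold (7.69 to 13.4) higher on days 3, 6 and 10, the most even ratio of the group. Cxcl3 had 8762, 3322 and 3751 CPM against 1012, 386 and 259 CPM, which was 8.66-, 8.61- and 14.5-fold higher, and it was found in 18 of 21, 30 of 40 and 59 of 74 cells. Tnf, the gene of tumour necrosis factor, had 1116, 2687 and 1263 CPM against 254, 337 and 177 CPM (4.4-, 7.97- and 7.16-fold) and was detected in each of the 40 cells of day 6. The named genes were picked among those at least 2-fold higher in each library, so that direction is set by the choice.

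Slpi, an inhibitor of leukocyte proteases, had 3868, 824 and 1228 CPM against 708, 105 and 100 CPM, with its highest level on day 3 in both groups. Slc7a11, the cystine importer that feeds glutathione synthesis, had 1132, 1429 and 1287 CPM against 209, 180 and 263 CPM and was detected in 19, 37 and 73 cells. Gadd45a, a stress-response gene, had 241, 268 and 353 CPM against 28.5, 55.8 and 79.4 CPM. Each was found in most cells, while the higher level on every day is part of how these genes were named. Lif, an interleukin-6 family cytokine, had 252, 68.3 and 63 CPM against 17.9, 11.1 and 13.9 CPM, and Acod1, which makes itaconate, had 320, 211 and 189 against 61.8, 31.8 and 17.4 CPM. Tnfrsf9, the receptor also called CD137, went the other way in time, with 110, 297 and 458 CPM against 16, 19.3 and 126 CPM, and so did the caveolar coat gene Cav1 with 62.9, 160 and 448 against 5.45, 40.4 and 94.4 CPM.

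Some of these sums rested on few cells. Serpinb2, which encodes plasminogen activator inhibitor 2, had 152, 117 and 45.4 CPM against 21.3, 7.17 and 4.77 CPM, but came from 4, 5 and 6 cells, and 1 cell held 81.7% of its UMIs on day 6. For Cav1 on day 3, 1 of 3 positive cells held 75% of 12 UMIs. By contrast 1 cell held at most 13.9% of the Slc7a11 UMIs in any library.

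**Figure D2:**
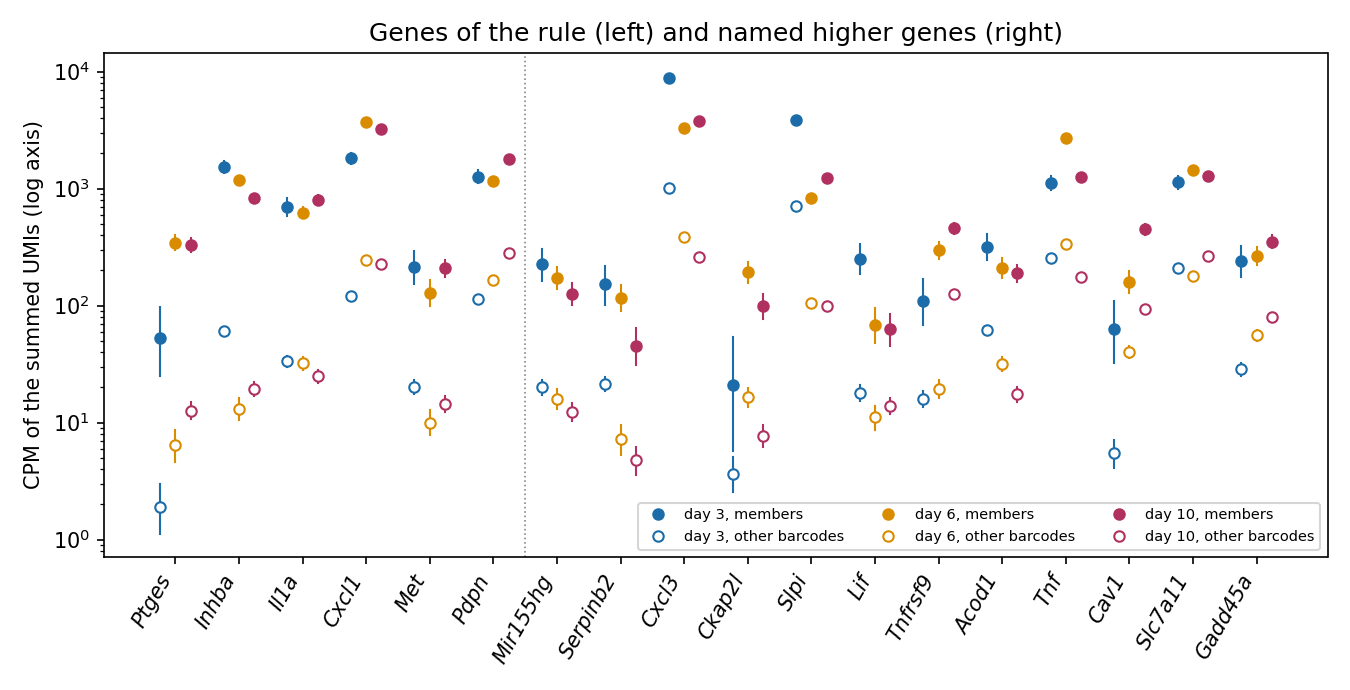
CPM of summed UMIs (log axis) in Ptges-Inhba-Il1a cells (filled) and other barcodes (open) by day, with Poisson 95% intervals; score genes left of the dotted line, named higher genes right. Each filled point lies above the open point of its day, which the choice of cells and genes sets, for example Mir155hg at 225, 174 and 126 against 20, 16 and 12.4 CPM.

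Ckap2l encodes a protein of the mitotic spindle. Of 14 genes of S and G2/M phase 0 were at least 2-fold higher in all libraries, where 1.79% of all genes were. Their median log2 ratio was -0.37. Of the 16 genes of the full list 9, 8 and 9 had 0 UMIs in the Ptges-Inhba-Il1a cells of days 3, 6 and 10, so the list says little. Ckap2l had 21, 193 and 99.6 CPM against 3.67, 16.4 and 7.69 CPM. It lies on chromosome 2 of GRCm38 at 129268210 to 129297212, on the - strand, directly downstream of the score gene Il1a (129299610 to 129309972, - strand) with 2397 bases between them. After seeing this, barcodes were divided by Il1a. Among the other barcodes Ckap2l was found in 50 of 260 with an Il1a UMI (19.2%, 14.6 to 24.6%) and in 44 of 2307 without (1.91%, 1.39 to 2.55%), at median depths of 10586 and 9829 UMIs. The proliferation gene Mki67 was found in 8.85% and 5.94% of the same barcodes. In the Ptges-Inhba-Il1a cells it was 52 of 110 with Il1a (47.3%) and 2 of 25 without (8%) for Ckap2l. Mki67 was found in 17 (15.5%) and 2 (8%) of the same cells, larger shares than in the other barcodes. Whether transcripts that run on from Il1a were counted as Ckap2l was not tested.

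The list of inflammatory cytokines also holds genes of other kinds, among them the enzyme genes Acod1 and Nos2 and the acute-phase gene Saa3. Of its 11 measured genes 6 were at least 2-fold higher in all 3 libraries (the cytokine genes Il6, Il23a, Lif, Csf3 and Tnf, and Acod1) and 0 lower, against 1.79% of all genes, and their median log2 ratio was 2.35 against -0.16. Without dendritic-marker barcodes it was 4 of 10 (Il6, Lif, Tnf and Acod1) with a median of 1.54. Il6 had 204, 43 and 19 CPM against 32.4, 11.4 and 3.45 CPM, from 5, 3 and 3 cells. The granulocyte factor Csf3 had 41.9, 25.4 and 68.8 CPM against 3.67, 10.5 and 1.77 CPM, from 2, 3 and 6 cells. Both therefore came from a small minority, while Tnf was found in 18, 40 and 67 cells.

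The interleukin-1 family showed opposing members. Il1b, the secreted partner of Il1a, had 8935, 6813 and 6780.0 CPM against 3917, 1349.8 and 1780.2 CPM. Its natural antagonist gene Il1rn was also higher, with 1232, 1293 and 1174 CPM against 299, 245 and 162 CPM, and was found in 16, 36 and 62 cells. Nlrp3, the inflammasome sensor, had 456, 890 and 685 against 169, 184 and 185 CPM. The decoy receptor gene Il1r2 was lower, at 15.7, 54.7 and 7.32 CPM against 134, 136 and 86.3 CPM. Of 15 genes 4 were higher in each library (Il1b, Il1rn, Irak3 and Nlrp3) and 1 was lower (Il1r2), where 1.79% and 2.05% of all genes were, and the list's median was -0.07, near that of all genes. Without dendritic-marker barcodes 3 of 14 were higher, Irak3 no longer among them, and 0 were lower.

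Within the prostaglandin and leukotriene list the higher genes were those of the step that feeds Ptges. Ptgs2, which encodes cyclooxygenase 2, had 3653, 4210.3 and 3070.1 CPM against 1076, 648 and 535 CPM, which was 3.39-fold (3.14 to 3.67), 6.5-fold (6.17 to 6.85) and 5.74-fold (5.46 to 6.03) higher, and was found in 21, 36 and 63 cells. Pla2g4a, the phospholipase that releases arachidonic acid, had 78.6, 54.7 and 92.2 CPM against 24.2, 22.4 and 29.6 CPM. The other branches were not higher. Ptgs1, the constitutive cyclooxygenase, had 0 UMIs in all 135 cells against 3.04, 13.6 and 14.9 CPM. Hpgds, which makes prostaglandin D2, had 0, 5.86 and 4.39 CPM against 3.88, 41.6 and 24.7 CPM, and the thromboxane synthase gene Tbxas1 had 41.9, 27.3 and 22 against 49.2, 68.3 and 57.6 CPM. The receptor gene Ptger4 had 26.2, 7.81 and 17.6 against 29.8, 60.1 and 43.7 CPM. In sum 2 of 15 genes were higher and 0 lower in all libraries, against 1.79% and 2.05% of all genes, with a median log2 ratio of -0.98. Without dendritic-marker barcodes Ptgs2 was the 1 higher gene, since Pla2g4a was 1.93-fold higher on day 6.

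The signalling partners of the score genes formed short lists. Over all genes 1.79% were higher and 2.05% lower in all libraries, so counts of 0 or 1 say little. Of 14 activin and TGF-beta genes 1 was higher, Thbs1, whose product thrombospondin 1 activates latent TGF-beta, at 8264, 5286 and 3442 CPM against 2959.7, 792 and 1188 CPM. The activin antagonist Fst had 0 UMIs in the Ptges-Inhba-Il1a cells and 4.19, 0.747 and 0.265 CPM in the other barcodes. The subunit genes Inhbb and Inha were at 0 in these cells and at no more than 2 UMIs per library in the far deeper sum of the other barcodes, so they allow no comparison. Of 11 HGF and MET genes 0 passed 2-fold in either direction in all libraries, and Hgf itself had 0, 9.76 and 11.7 CPM against 2.62, 10.8 and 7.16 CPM. Of 8 podoplanin partners 1 was higher, the tetraspanin Cd9, with 1326, 1009.6 and 1413 against 183, 368 and 330 CPM.

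Among CXC chemokine and receptor genes 3 of 10 were higher in all libraries, Cxcl2, Cxcl3 and Cxcl14, where 1.79% of all genes were. Cxcl2 was detected in all 135 cells, with 34792, 26711 and 33073 CPM against 8048, 4836 and 7278 CPM, so it was 4.32-, 5.52- and 4.54-fold higher. Cxcl10, an interferon-induced attractant of T cells, did not hold to that pattern: it had 1079.5, 1056 and 42.5 CPM against 304, 141 and 60 CPM. Among 12 CC chemokine genes Ccl3 and Ccl4 were higher, with 2143, 1388 and 2310.3 against 634, 401 and 392 CPM and with 6975, 3480.0 and 1463 against 1663, 941 and 530 CPM. Ccl12 was lower in all libraries. Over all genes 1.79% were higher and 2.05% lower. Cells without Ccl4 were common, since it was found in 16, 21 and 38 of them.

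The NF-kB list mixes subunits such as Rela and Nfkb1, inhibitors such as Nfkbia, and targets such as Icam1. Of its 18 genes 5 were higher (Tnfaip3, Tnip1, Tnfaip2, Nfkbiz and Sod2) and 0 lower, against 1.79% and 2.05% of all genes. Without dendritic-marker barcodes 3 were higher, Tnfaip3, Sod2 and Traf1. Tnfaip3, which encodes the ubiquitin-editing enzyme A20, had 1373, 2154 and 1049.7 CPM against 360, 500 and 301 CPM and was detected in 20, 40 and 69 cells. Sod2, the mitochondrial superoxide dismutase induced by NF-kB, had 1205, 605 and 634 against 197, 137 and 187 CPM.

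Arginine and polyamine genes were higher in 5 of 11 cases, Arg1, Arg2, Ass1, Slc7a2 and Odc1, and lower in 0, against 1.79% and 2.05% of all genes. Without dendritic-marker barcodes 3 of 11 were, Arg1, Ass1 and Odc1. Arg1, the liver-type arginase also used by repair macrophages, had 4198, 4669 and 7013 CPM against 793, 860 and 2678 CPM, and was found in 19, 40 and 73 cells. Its rival for arginine, the inducible nitric oxide synthase gene Nos2, had 0, 52.7 and 338 CPM against 0.839, 2.99 and 25.5 CPM. Both arginine enzymes were therefore high on day 10 in the same sum of cells.

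Hypoxia genes were higher in 3 of 17 cases, Hilpda, Mif and Ero1l, with a median log2 ratio of 1.04, and 1 of 13 glycolysis genes was, Pgk1, with a median of 0.86, where 1.79% of all genes were. Without dendritic-marker barcodes most of these calls ended: 1 of 17 hypoxia genes (Hilpda) and 0 of 13 glycolysis genes were higher, with medians of 0.85 and 0.69. Hilpda, which blocks lipid droplet breakdown, had 922, 1531 and 1297 against 241, 312 and 367 CPM. The vessel growth factor Vegfa had 1095, 1240.1 and 722 against 270, 260 and 438 CPM, so it was 4.05- and 4.77-fold higher on days 3 and 6 and 1.65-fold on day 10.

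Of 15 matrix protease and inhibitor genes 5 were higher, Serpinb2, Ctsk, Plaur, Adam8 and Mmp14, and 0 lower, against 1.79% and 2.05% of all genes, with a median log2 ratio of 1.19. Without dendritic-marker barcodes it was 4, Mmp14 no longer among them, with a median of 0.75. Mmp14, a membrane collagenase, had 341, 504 and 594 CPM against 59.7, 198 and 226 CPM and was found in 15, 36 and 70 cells. Plaur, the urokinase receptor, had 1027, 711 and 529 against 397, 203 and 185 CPM. The growth factor list had 2 of 10 higher genes, where 1.79% of all genes were higher. Spp1, which encodes osteopontin, had 3087, 8532 and 12143 CPM against 1165, 2197 and 2057 CPM, and Areg, an epidermal growth factor receptor ligand, came from 3, 3 and 6 cells with 1 cell holding 90.5%, 87.3% and 81.5% of its UMIs. The list of immediate early and dissociation genes, which mark handling of tissue, had 1 higher gene of 21, Egr2, where 1.79% of all genes were higher. Its median was -0.08, and without dendritic-marker barcodes 0 of 20 were higher.

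**Figure D3:**
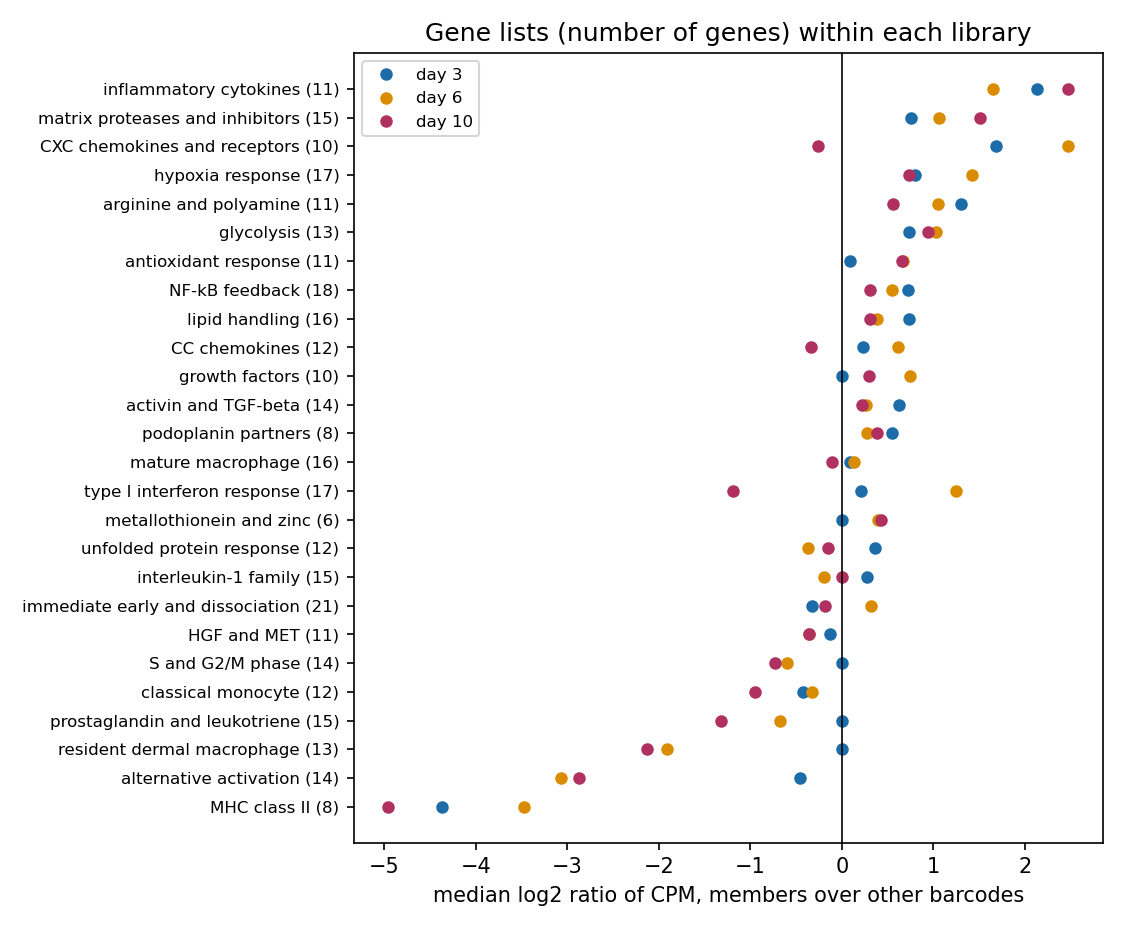
Median log2 ratio of CPM (Ptges-Inhba-Il1a cells over other barcodes) for each gene list and day; the number of genes measured stands in brackets. The inflammatory cytokine list lies at 2.14, 1.65 and 2.47 and MHC class II at -4.36, -3.47 and -4.96 on days 3, 6 and 10, and the interferon list lies on both sides of 0.

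Antigen presentation lay at the other end. MHC class II genes were lower in 7 of 8 cases, against 2.05% of all genes, with a median log2 ratio of -4.50, and without dendritic-marker barcodes in 6 of 7 cases with a median of -3.34. H2-Eb1, a class II beta chain, had 15.7, 553 and 29.3 CPM against 2909, 5580.0 and 3617 CPM. It was 185-fold (63.3 to 897), 10.1-fold (8.98 to 11.4) and 124-fold (80 to 202) lower on days 3, 6 and 10. H2-Aa, the matching alpha chain, had 0, 748 and 33.7 CPM against 2861, 5464 and 3628 CPM. The day 6 cells stood apart in both, and 1 cell held 69.3% of their H2-Eb1 and 54% of their H2-Aa UMIs. The invariant chain gene Cd74 had 456, 1781 and 225 against 8329, 12992 and 10490.1 CPM, and H2-Ab1 and the peptide editor H2-DMb1 were likewise lower in each library.

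The remaining named lower genes were Cd209a, Tmem176a, Tmem176b, Clec10a, Retnla, Klrd1 and Mgl2. Retnla, an interleukin-4 target that marks alternative activation, had 0 UMIs in all 135 cells against 36.1, 205 and 505 CPM. Against a floor of 3 UMIs per library it was at least 2.29-, 35.1- and 115-fold lower, and it stayed among the lower genes without the dendritic-marker barcodes. The lectin genes Mgl2 and Clec10a had 0 to 9.76 CPM against 52.8 to 291 CPM. Cd209a is itself a dendritic marker, and with Klrd1 it depended on those barcodes: without them the log2 ratios changed from -5.38 to -1.06 for Cd209a and from -4.08 to -0.47 for Klrd1. Of 14 genes of alternative activation 4 were lower in all libraries (Cd209a, Mgl2, Clec10a and Retnla) and 0 higher, against 2.05% and 1.79% of all genes, with a median log2 ratio of -2.08. Without dendritic-marker barcodes 4 of 13 were lower, but Cbr2 and Folr2 stood in place of Cd209a and Mgl2. Genes of resident dermal macrophages gave 2 of 13 lower (Pltp and Selenop) and 0 higher, against 2.05% and 1.79% of all genes. Without dendritic-marker barcodes 4 of 12 were lower, with Cbr2 and Folr2 besides. Cd163, a scavenger receptor of such cells, had 1 UMI in all 135 cells, in day 10, against 6.08, 89.1 and 34.6 CPM.

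**Figure D4:**
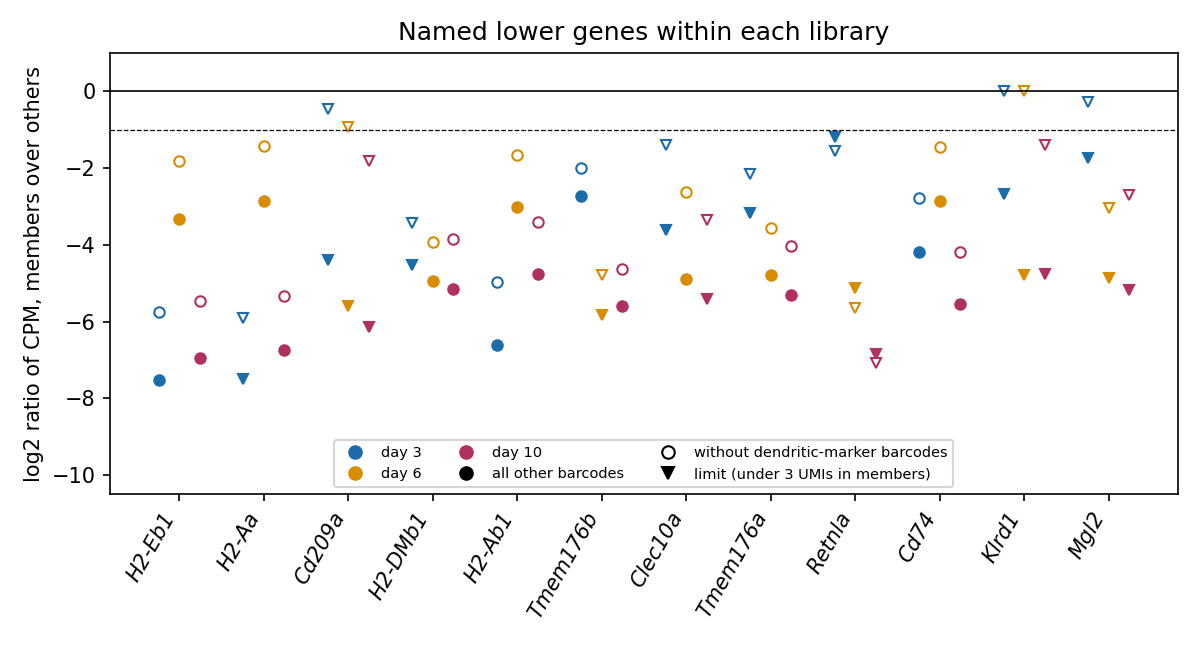
Log2 ratio of CPM (Ptges-Inhba-Il1a cells over other barcodes) of the named lower genes by day, against all other barcodes (filled) and without dendritic-marker barcodes (open); triangles have under 3 UMIs in the Ptges-Inhba-Il1a cells, set to 3. The dashed line is a 2-fold difference, and Klrd1 moves to or near 0 on days 3 and 6 without the dendritic-marker barcodes.

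Among the genes named for the largest ratios between days were interferon, monocyte and metallothionein genes. Of 4377 genes with at least 20 UMIs over both days, 560 (12.8%) were at least 2-fold higher on day 10 than on day 3 and 488 (11.1%) were at least 2-fold lower. From day 3 to day 6 the counts were 628 (15.9%) and 330 (8.34%) of 3959, and from day 6 to day 10 they were 206 (3.82%) and 455 (8.44%) of 5388. In the other barcodes, which are far deeper sums, day 10 against day 3 gave 1425 (12.7%) higher and 439 (3.91%) lower of 11231 genes, day 6 against day 3 gave 14% and 3.54%, and day 10 against day 6 gave 2.49% and 3.62%. The day 3 cells summed to 190821 UMIs, day 6 to 512074 and day 10 to 683039, so low genes of day 3 are the least precise.

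Interferon genes were low on day 10. Rsad2, an antiviral enzyme also called viperin, had 985, 834 and 13.2 CPM on days 3, 6 and 10 against 191, 89.4 and 27.9 CPM in the other barcodes. On day 10 it was 74.8-fold lower than on day 3 (38.6 to 166) in the Ptges-Inhba-Il1a cells and 6.85-fold lower in the other barcodes. Isg15, a ubiquitin-like modifier, had 1127, 422 and 35.1 CPM against 801, 177 and 80.7 CPM. Thus both were above the other barcodes on days 3 and 6 and below them on day 10. Rsad2 was found in 13 of 21, 18 of 40 and 7 of 74 cells, and Isg15 in 19, 26 and 16. Oasl1, Ifi209 and Slfn4 were also among the 8 named genes lower on day 10, at 1.46, 10.2 and 13.2 CPM against 141, 435 and 508 CPM on day 3.

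Over the whole list of 17 interferon genes, 1 was at least 2-fold higher than in the other barcodes on day 3 and 2 were at least 2-fold lower, where 7.64% and 7.39% of all genes were. On day 6, 11 were at least 2-fold higher and 0 lower, where 7.01% and 14% of all genes were, and 0 were higher and 12 lower on day 10, where 4.25% and 13.7% were. The medians of the log2 ratio were 0.21, 1.25 and -1.19 on days 3, 6 and 10. From day 3 to day 10 12 of 12 measured list genes were lower in the Ptges-Inhba-Il1a cells, where 11.1% of all genes were, with a median log2 ratio of -4.36, and in the other barcodes the same genes had a median of -2.80 with 12 of 12 lower. From day 6 to day 10 17 of 17 were lower, where 8.44% of all genes were, at a median of -3.74 against -1.05. On day 6 the sums of some rested on few cells: 1 cell held 55.5% of Ifit1, 65.5% of Mx1 and 64.8% of the Ccl5 UMIs. The difference of the day change between the groups was not tested.

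Among the genes with the largest ratios between days were 3 known from classical monocytes, Ly6c2, Plac8 and Ms4a4c. Ly6c2, the marker of newly arrived classical monocytes, had 618, 13.7 and 14.6 CPM, against 570, 63.1 and 75.4 CPM. Plac8 had 1708, 104 and 48.3 CPM against 2070.2, 381 and 383 CPM, and Ms4a4c had 844, 164 and 11.7 against 1108, 248 and 163 CPM. On day 3 these genes were thus close to the level of the other barcodes, and later they were below it. Ifitm1 and the formyl peptide receptor gene Fpr1 were the other named genes lower on day 6 than on day 3, with 1179 and 104 CPM and with 189 and 19.5 CPM. The chemokine receptor gene Ccr2 was lower than in the other barcodes on every day, at 225, 139 and 95.2 against 821, 427 and 514 CPM.

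Higher on day 10 were Mmp12, Mt2, Mt1, Fabp5, Nos2, Timp2, Egln3 and F3. The metallothionein gene Mt1 had 68.1, 1461 and 3031 CPM against 309, 841 and 1949.7 CPM. On day 10 it was 44.5-fold higher than on day 3 (26 to 83.7) in the Ptges-Inhba-Il1a cells and 6.31-fold higher in the other barcodes. Over 17 alternatives the ratio in these cells ran from 11.9- to 55.4-fold, and it was lowest with Cxcl1 left out of the score. Mt2 had 5.24 CPM on day 3, from 1 UMI, and 344 and 726 CPM on days 6 and 10. Both metallothioneins were spread over the cells of day 10, in 70 and 52 of 74. Egln3, an oxygen-sensing hydroxylase gene, had 21, 60.5 and 262 CPM and was found in 4, 18 and 57 cells. Nos2 was not detected in the 21 cells of day 3, found in 13 of 40 on day 6 and in 36 of 74 on day 10, and against a floor of 3 UMIs it was at least 21.5-fold higher on day 10 than on day 3. From day 6 to day 10 it was 6.41-fold higher (4.3 to 9.94), and Egln3, the sialyltransferase gene St8sia4 and the hypoxia gene Fam162a were 4.33-, 3.28- and 3.22-fold higher.

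Mmp12 and Fabp5 illustrate how few cells can carry such a ratio. Mmp12, the macrophage elastase gene, had 0, 1918 and 2420.1 CPM, but 1 cell held 62.4% of the day 6 UMIs. Of 17 alternatives 12 kept its ratio of day 10 to day 3 past 2-fold, and 9 moved it by over 1.5 times. Under 1 of them its direction turned (log2 ratio -0.12 with Inhba left out of the score). Fabp5, a fatty acid carrier, had 21, 1509.5 and 837 CPM, and 1 cell held 83.8% of the day 6 UMIs. Its log2 ratio of day 6 to day 3 was 6.17, and it was 4.0 without the richest cell of each library and 0.63 with Cxcl1 left out of the score. Of 17 alternatives 14 kept that ratio past 2-fold and 11 moved it by over 1.5 times. F3, which encodes tissue factor, the trigger of clotting, had 15.7, 60.5 and 151 CPM from 2, 10 and 21 cells, while the other barcodes had 15.9, 13.9 and 4.86 CPM. With the top 10% of barcodes taken instead, its log2 ratio of day 10 to day 3 was 0.13 in place of 3.26.

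**Figure D5:**
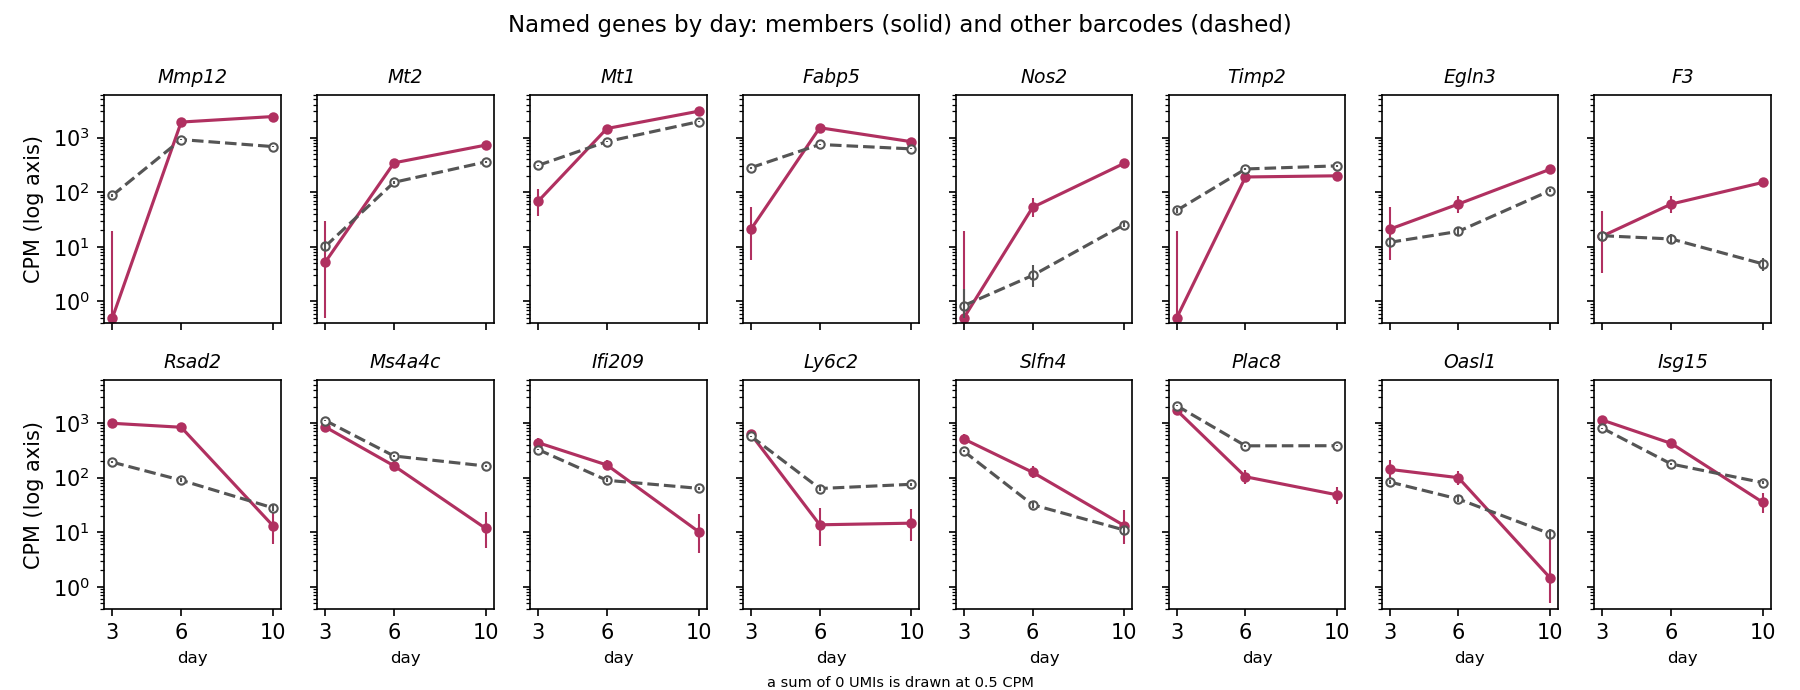
CPM of summed UMIs (log axis) by day for the named genes higher (top) and lower (bottom) on day 10 than on day 3, in Ptges-Inhba-Il1a cells (solid) and other barcodes (dashed), with Poisson 95% intervals; a sum of 0 is drawn at 0.5 CPM. Rsad2 and Isg15 start above the other barcodes and end below them, and F3 separates from them with time, from few cells on day 3.

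The cells were partly shared with other high-scoring sets made in the same way, each of 135 barcodes. They shared 23 barcodes (17%) with the top 5% for Acod1 and Ccl24, 17 (12.6%) with that for Nos2, Mt2 and Saa3, and 12 (8.89%) with that for Mmp12, Lpl and Gpnmb. Each set holds 5% of the kept barcodes, so a share of about 5% follows from size alone. All 17 shared with the Nos2 set came from day 10, as did 119 of the 135 barcodes of that set. On day 10 Nos2 itself was at 338 CPM in the Ptges-Inhba-Il1a cells and 330 CPM in that set. The acute-phase gene Saa3, part of that set's choice, was at 24.9 against 2689.7 CPM on day 10. For genes that chose neither, Il1rn stood at 1174 against 282 CPM and Slpi at 1228 against 252 CPM on day 10, while Arg1 was at 7013 against 8826 CPM and Vegfa at 722 against 961 CPM. In the Acod1 and Ccl24 set Ptgs2 stood at 2541 and Tnf at 1063 CPM on day 10, beside 3070.1 and 1263 CPM in the Ptges-Inhba-Il1a cells, and Arg1 stood at 5185 and Vegfa at 491 CPM. In the Nos2 set Ptgs2 was at 2115 and Tnf at 335 CPM. Levels in the Nos2, Acod1 and Mmp12 sets follow in that order. On day 10 Tnfrsf9 was at 378, 232 and 475 CPM, beside 458 CPM in the Ptges-Inhba-Il1a cells. Spp1 was at 2382, 10920 and 18881 beside 12143 CPM, and Mir155hg at 26.1, 80.9 and 20.7 beside 126 CPM. On day 6 Cxcl3 was at 1057, 4629 and 749 beside 3322 CPM. Thus Tnfrsf9, Spp1 and Cxcl3 were each higher in 1 other set. The sets share cells and libraries, so these values stand side by side with no test.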

How the data were processed

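Per the labels, each of the 3 libraries (day 3, day 6 and day 10) pools cells of 2 mice. The authors deposited raw UMI counts per gene and barcode for 31053 gene identifiers, which per the submitters' processing notes came from Cell Ranger 3.0.2 and mm10. The sorting gates and annotation release are not given in the sources used here.

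From these counts UMIs were summed per library over the 135 chosen cells and over the 2567 other barcodes, and expressed as CPM. Genes needed at least 100 UMIs in all and 20 per library (between days, 20 over both sums). Sums under 3 UMIs were set to 3, and a ratio was taken as 1 where that step alone carried it across 1. A gene was counted at a ratio of at least 2 or at most 0.5. No test was run. Intervals are exact 95% intervals (Poisson for CPM, Clopper-Pearson for shares, conditional binomial for ratios) and cover counting error only.

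Named genes were the 12 largest and 12 smallest ratios against the other barcodes with at least 100 CPM, 8 in each direction for day 10 against day 3 and 4 for the other pairs of days, and up to 3 per direction of each of 26 gene lists. Mitochondrial, ribosomal protein, Gm and Rik genes were left out. Some printed list members were chosen after their values were seen. The members and lists were chosen with earlier results of these data known. The summing and calling steps were tested on simulated data. Gene coordinates are from GENCODE (GRCm38) and promoter windows from RefSeq (GRCm38.p6).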

Additional observations from a re-analysis of the deposited data

Results flagged for a closer look

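F3, the gene of tissue factor, was 9.59-fold higher on day 10 than on day 3 in the Ptges-Inhba-Il1a cells (3.19 to 47.3), while in the other barcodes it was 3.28-fold lower. It stood out because the direction between days was opposite in the 2 groups, and the difference between the groups was not tested.

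Barcodes left out by the filters also reached the score limit. In the day 6 library 4 left-out barcodes did, all of them with 10% or more mitochondrial UMIs, and in the day 10 library 8 did, all of them with under 2000 UMIs. These stood out as signal in barcodes that no comparison used. At so few UMIs per barcode a score over 6 genes rests on few molecules.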

How the results depend on the processing

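No paired analysis was possible because each day has 1 library. The share of Ptges-Inhba-Il1a cells on days 3, 6 and 10 was 5.57%, 13.4% and 11.6% when the top 10% were taken and 0.796%, 3.63% and 3.22% for the top 2.5%, and the day 3 share was 3.64% with Cxcl1 left out of the score. The 165 higher genes became 104 against other barcodes within the same range of UMIs and 91 without dendritic-marker barcodes, and leaving out 1 library gave 187 to 268, the most without day 10. The 189 lower genes became 88 for the top 2.5%, 73 where cells were chosen on 1 random portion of the UMIs and read in the other, 300 for the top 5% within each library and 108 without dendritic-marker barcodes, and leaving out 1 library gave 259 to 581, the most without day 3. Between day 3 and day 10 the 560 higher genes became 1023 (top 10%), 195 (top 2.5%) and 108 (at least 100 UMIs), and the 488 lower genes became 105 at that minimum, where fewer genes were measured. Mmp12 turned direction for day 10 against day 3 with Inhba left out of the score (log2 ratio -0.12) and for day 6 against day 3 with the score from thinned barcodes (-0.50), without Inhba (-0.24) and without Cxcl1 (-1.01), and the cause was not tested. For the other counts the cause was not tested beyond what each setting fixes. Values were sorted by a yardstick. For ratios to the other barcodes it was the standard deviation of the 3 library log2 ratios, and between days it was the counting interval. Of 1810 values for 88 named genes and lists, 1581 stayed within it, 225 moved beyond it and 4 reversed. It is wide for genes whose libraries differ: H2-Eb1 stayed within it in all 24 alternatives while running from 18.7- to 160-fold lower. Removing dendritic-marker barcodes and the richest cell of a gene were alternatives chosen after seeing the data.

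The 21 cells of day 3 limit every comparison with that day, since 1 UMI of their sum is worth over 5 CPM.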

Other observations

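Il7r, the interleukin-7 receptor gene, was in 11, 35 and 48 Ptges-Inhba-Il1a cells and had 293, 518 and 288 CPM on days 3, 6 and 10, against 60.8, 111 and 77.3 CPM in the other barcodes. The lymphoid genes Gata3, Ncr1, Nkg7, Prf1 and Gzma were at 0 in the same cells. Of 11 antioxidant genes 1 was at least 2-fold higher in all libraries, Slc7a11, where 1.79% of all genes were. The heme oxygenase gene Hmox1 had 288, 1301 and 1627 CPM against 225, 817 and 1113 CPM. The heat shock gene Hspa1b had 1085, 1172 and 57.1 CPM against 1576, 2169 and 461 CPM, and 1 cell held 71.5% of its day 3 UMIs.

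Of 16 genes of lipid handling 1 was higher in all libraries (Cd9) and 1 lower (Lipa, the lysosomal acid lipase gene, with 5.24, 37.1 and 24.9 CPM against 41.9, 145 and 88.4 CPM), and without dendritic-marker barcodes Apoe was lower too. Of 16 genes of mature macrophages 1 was higher (Cd14) and 1 lower, the fractalkine receptor gene Cx3cr1, with 0, 5.86 and 16.1 CPM against 37.2, 76.1 and 102 CPM. Without dendritic-marker barcodes Ms4a7 was lower too. Of 12 unfolded protein response genes 1 was lower, Herpud1, and 0 without dendritic-marker barcodes. Over all genes 1.79% were higher and 2.05% lower. None of 6 metallothionein and zinc genes was at least 2-fold apart in the same direction in all libraries.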
